A study of Bos grunniens with 36 samples.

Results

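Collagen genes of the yak mammary gland were described across late pregnancy and lactation. The members are the 31 genes of 20110 gene names and unnamed transcripts in the deposited value table whose name has the form COL, a number, A and a number. Together they have 87 of the 34997 probes of that table, and each gene is given by its probe with the highest mean over the 36 arrays. COL10A1 and COL6A6 are on the array but have no probe in the table. Probes that the array's annotation describes as collagen but files under another name, COL6A3 among them, fall outside the rule. All 31 names are also gene symbols of the yak RefSeq assembly.

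Each of 4 female yaks (Bos grunniens, whose age and breed the labels do not give) was biopsied at 9 times: 30 and 15 days before calving (day -30 and day -15) and 1, 15, 30, 60, 120, 180 and 240 days after it. No animal received a treatment according to the labels, and the same number marks the same animal at every day. Biopsies alternated between the left and right rear gland, and fat and connective tissue were dissected away before RNA was extracted, so the stroma measured here is what stayed in the parenchyma. Total RNA was amplified from an oligo(dT) primer, labelled with Cy3 and hybridised to a cattle array with 60-base probes, 1 array per biopsy. Values are log2 signals from which a constant close to the 75th percentile of each array was subtracted, which means that 1 unit is a doubling and that a negative value is a signal below that percentile. Since each probe has its own brightness, levels are compared between days and animals and not between genes.

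Collagens are proteins of 3 chains wound into a helix, and the helix needs a glycine at every position that faces its axis. Types I, II, III, V, XI and XXVII form fibrils, of which types I and III make up most of the interstitial collagen around ducts and lobules. Type IV forms the sheet of the basement membrane, on which mammary epithelium and myoepithelium rest and which also surrounds capillaries and fat cells. Type VI makes beaded filaments beside it, type VII anchors epithelia to the stroma, the fibril-associated types IX, XII, XVI, XX, XXI and XXII coat or link fibrils, types XIII, XVII and XXV cross the cell membrane, and types XV and XVIII lie between basement membrane and stroma. In this gland, stroma and basement membrane are known to be remodelled as alveoli grow before calving and regress after lactation.

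The glycine rule is visible in the probes themselves, which is why some are shown here as the files give them. The capitals mark glycine codons (GGN, on the printed strand) that stand 3 codons apart.

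COL1A1: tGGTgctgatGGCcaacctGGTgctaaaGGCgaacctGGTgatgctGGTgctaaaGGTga
COL1A2: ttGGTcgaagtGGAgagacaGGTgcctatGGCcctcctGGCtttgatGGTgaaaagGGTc
COL4A1: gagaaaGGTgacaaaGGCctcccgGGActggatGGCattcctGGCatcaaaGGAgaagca
COL6A2: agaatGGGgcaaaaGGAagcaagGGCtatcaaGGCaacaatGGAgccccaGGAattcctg
COL2A1: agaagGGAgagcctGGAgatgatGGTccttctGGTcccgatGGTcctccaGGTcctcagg
COL25A1: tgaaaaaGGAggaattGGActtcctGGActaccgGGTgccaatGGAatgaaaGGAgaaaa

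On the cattle assembly UMD 3.1 that the scanner files use, these probes lie at chr19:37099610-37099889 (COL1A1, plus strand), chr4:11653382-11653441 (COL1A2, plus), chr12:88894546-88894605 (COL4A1, minus), chr1:147561093-147561436 (COL6A2, plus), chr5:32475718-32476019 (COL2A1, plus) and chr6:17642508-17643422 (COL25A1, plus). Those of COL1A1, COL6A2, COL2A1 and COL25A1 span more than their 60 bases, so that the files place them across an intron, and none was annotated further here. A run of such codons through the whole probe, at least 6 of them, was found in 13 of the 87 collagen probes (14.9%), of 12 genes, and in 16 of all 34997 probes (0.0457%). On the opposite strand the same pattern was found in 1 probe of the table. For COL2A1 and COL25A1 the probe shown is the one that stands for the gene below. For COL1A1, COL1A2, COL4A1 and COL6A2 a brighter probe stands for the gene, and the values of the shown probe are given with the comparison of probes.

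Some features of the arrays bear on every result. Each of the 36 columns of the table equals 1 scanner file less a constant, but 0 of the 36 matched files is deposited under the same sample, and for 27 columns the matched file is deposited under another day. The days used here are those of the table's own columns, under which the mean of 8 milk secretion genes lay between 2.37 and 3.80 at day -30 and between 7.0 and 7.72 at day +15. By that record each of the 9 slides holds the 4 arrays of 1 day, so slide and day cannot be told apart. The 75th percentile of the signal was 4854.0 to 5751.9 intensity units at day -30 and 1278.0 to 2511.9 at day +60, so the arrays of day +60 were dimmer. At day +120 it ranged from 1177.6 to 6450.4, so not every later array was dimmer. The arrays of animal 4 at day +120 and day +180 stand apart, with CSN2, a casein gene, at -0.98 and -1.01 against 6.65 to 8.74 in the other animals on those days. Counts are therefore given with and without those 2 arrays. The arrays of animal 3 at day +30 and of animal 1 at day +240 were also low in milk genes, with CSN2 at 4.03 and 4.51 against 6.08 to 7.60 and 7.27 to 8.46 in the other animals on those days. Counts without all 4 of these arrays are given too.

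Across all 9 days, 8 of the 31 collagen genes (25.8%) changed at an adjusted p under 0.05, against 42.3% of all genes tested. The 8 were COL4A2, COL4A3 and COL4A5 of the basement membrane, COL27A1 among the fibril formers, the fibril-associated COL21A1 and COL22A1, and the transmembrane COL13A1 and COL25A1. Without the 2 arrays that stand apart, 11 genes passed, and without the 4 arrays low in milk genes 12. COL1A1, COL1A2, COL3A1, COL4A1, COL6A1 and COL6A2 did not pass, with adjusted p between 0.424 and 0.841. By this signal, fewer collagen-producing cells and less RNA per cell cannot be told apart. Without animal 1, 2 or 3 the count over all days was 3, 4 or 2, and without animal 4 it was 10. The share of all genes that passed without these arrays or animals is not given, so these counts cannot be set against it.

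**Figure D1:**
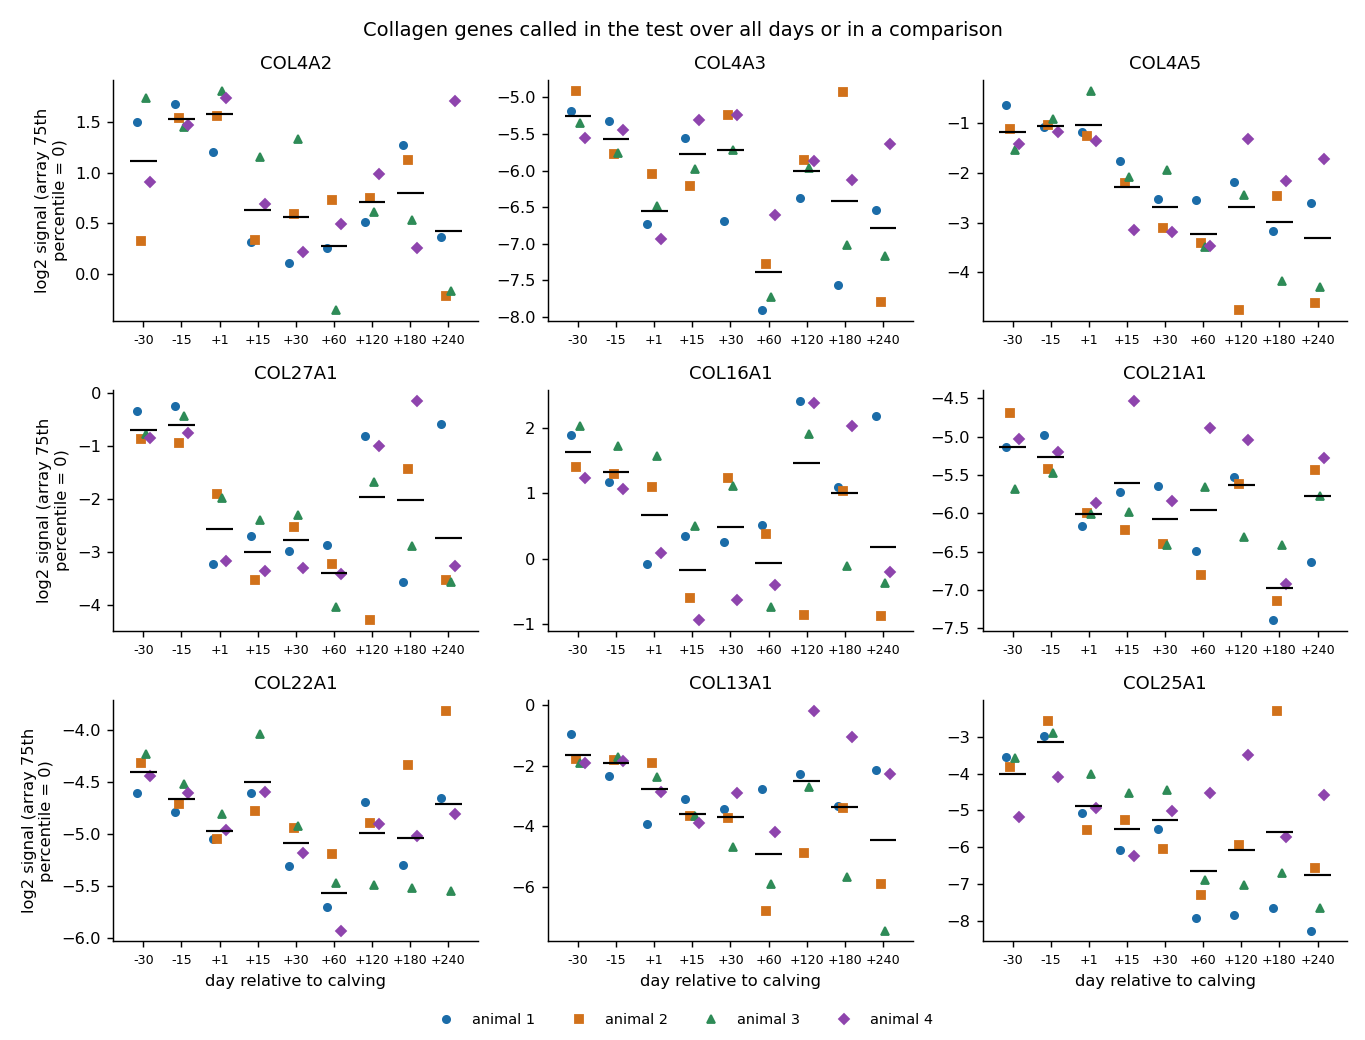
Log2 signal of the 9 collagen genes called over all days or in a comparison, with day relative to calving on the horizontal axis, 1 point per animal and a bar at the mean of 4. In COL4A5 all 4 points at day +60 lie below all 4 at day -30, and in COL13A1 and COL27A1 the 4 animals spread widely from day +120 on.

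With the brightest probe of each gene, all calls between days in limma's main fit were falls. Against day -30, 2 of 31 collagen genes were lower at day +15 (17.9% of all genes were called in either direction and 7.71% lower), 7 at day +60 (29.3% and 16.7%), 3 at day +180 (17.4% and 10.8%) and 5 at day +240 (13.9% and 7.08%). The share of collagen genes called lower was 6.45% at day +15 and 9.68% at day +180, below the shares of all genes called lower, and 22.6% at day +60 and 16.1% at day +240, above them. Between neighbouring days only COL4A3 was called, lower at day +60 than at day +30, where 0.88% of all genes were called, all of them lower. Its probe was well above background on none of the arrays of day +60, the bound described below gives no fold for this pair of days, and without the 4 arrays low in milk genes the adjusted p was 0.126. Without animal 3 the count at day +60 was 4, and without animal 1 or 3 that at day +180 was 1. At day +15 it was 1 without animal 1 and 0 without any other animal, and at day +240 it was 3 without animal 1 and 0 without animal 2 or 3. Without the 2 arrays that stand apart the counts at day +60, +180 and +240 were 8, 7 and 6, and without the 4 arrays low in milk genes they were 9, 7 and 9. For counts without an animal or array the share of all genes is not given, so a move of the whole table cannot be told apart. In limma's test no collagen gene was called at day -15, +1, +30 or +120 against day -30, where 0.00497%, 6.24%, 6.37% and 3.76% of all genes were. At an unadjusted p under 0.05 the counts at those 4 days were 0, 5, 5 and 4. The remaining 6 comparisons of neighbouring days also had 0 calls in limma. The unadjusted count was 5 for day +1 against day -15, 7 for +15 against +1 and 1 for +30 against +15. It was 6 for +120 against +60, 2 for +180 against +120 and 1 for +240 against +180. The shares of all genes called, at an adjusted p under 0.05, were in the same order 1.79%, 0.318%, 0.0149%, 0.895%, 0.338% and 0.801%. An unadjusted share over all genes is not given, so the unadjusted counts, here and against day -30, cannot be set against these shares. An ordinary analysis of variance with animal as a factor added 1 call in these 10 comparisons, COL17A1 at day +15 against day +1.

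The direction was shared more widely than the calls. At day +60, 27 of 31 collagen genes had a lower mean than at day -30 (56.2% of all genes did), with a median difference of -0.82 against -0.12 over all genes. At day +240 it was 30 of 31 (50.6% of all genes), with a median of -0.70 against -0.01. The medians were -0.49 at day +15, -0.47 at day +30, -0.14 at day +120 and -0.58 at day +180, where those over all genes were -0.01, -0.05, 0.01 and -0.05. All of these comparisons use the same 4 arrays of day -30. With array brightness as a covariate the medians at day +60 and day +240 were -0.01 and -0.04, and those over all genes -0.12 and -0.05. Under that setting 7 collagen genes were called at day +60 and 3 at day +240, of which 2 (COL4A3 and COL22A1) and 0 are among the calls above. The 75th percentiles of day -30 share no range with those of day +15, +60, +180 and +240. Brightness and day are therefore hard to separate in these comparisons. With day in the fit, the slope of the covariate comes from differences between arrays within a day. The 4 arrays low in milk genes were each the brightest of their own day. A call or difference gained or lost with this covariate, here or below, thus cannot be assigned to brightness or to day. With normexp background correction the median at day +60 was -0.23, while that over all genes rose to 0.36. From day +60 to day +120, 28 of 31 collagen genes had a higher mean (median difference 0.48 against 0.11 over all genes), and none was called. The 4 animals at day +60 lay wholly below those at day -30 in 8 of 31 collagen genes, and in 19.8% of all genes.

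**Figure D2:**
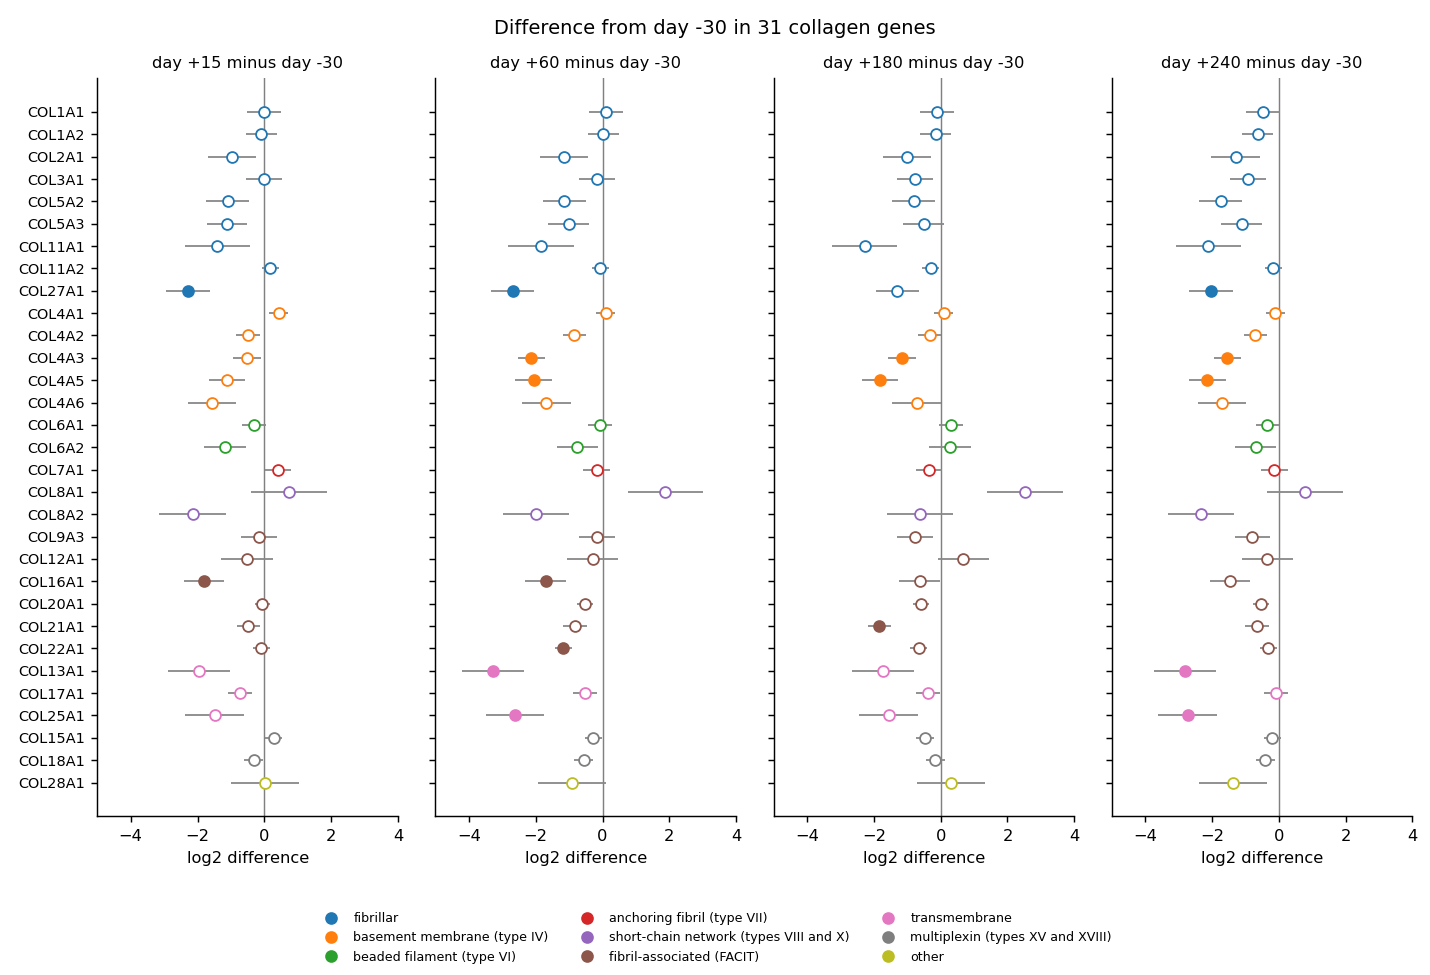
Log2 difference from day -30 of the 31 collagen genes at 4 later days, with its standard error as a bar, coloured by type and filled where the adjusted p is under 0.05. The filled points all lie left of 0, and COL1A1, COL1A2, COL3A1, COL4A1 and COL6A1 lie within 1 unit of 0 at each of the 4 days.

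Of the 5 type IV genes, 3 changed over the days by their brightest probe. COL4A5 codes for a chain that is rarer than the main COL4A1 and COL4A2 chains and whose loss in humans damages the kidney's basement membrane (its probe lies at chrX:61824202-61824261, UMD 3.1). Its values at day -30 were -0.62, -1.11, -1.54 and -1.42 in animals 1 to 4, and at day +60 they were -2.55, -3.41, -3.49 and -3.48. All 4 animals fell and the days did not overlap, with a log2 difference of -2.06 (SE 0.548, adjusted p 0.00672), a 4.18-fold fall. The fall was also called at day +180, by 1.82 (adjusted p 0.0212), and at day +240, by 2.14 (adjusted p 0.0117). At day -15 and day +1 the means, -1.05 ± 0.103 and -1.03 ± 0.465 (SD, n = 4), were close to the -1.17 ± 0.408 of day -30. Animal 2 was the lowest at day +120 (-4.77), and animals 2 and 3 at day +240 (-4.61 and -4.29), while animal 4 stood at -1.32, -2.16 and -1.72 on the last 3 days. Without animal 3, COL4A5 did not pass over all days (adjusted p 0.063).

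COL4A3, a partner of COL4A5 in that rarer network, had a dim probe (chr2:116291148-116291205). It read -5.19, -4.91, -5.35 and -5.55 at day -30, well above background on all 4 arrays, and -7.91, -7.27, -7.72 and -6.60 at day +60, well above background on none. The fitted difference was -2.13 (SE 0.411, adjusted p 0.000497). Because day +60 gives only a bound, the fall is stated as at least 1.14-fold, the mean of day -30 over the lowest signal well above background on the arrays of day +60. It was also called at day +180 (-1.16, adjusted p 0.0486) and day +240 (-1.54, adjusted p 0.0149), where 1 and 2 of 4 arrays were above background, and at day +60 against day +30 (adjusted p 0.0438). At day +30 it read -6.69, -5.24, -5.72 and -5.24, well above background on 3 of 4 arrays, which overlaps with day +60. Since the mean of day +30 does not exceed the lowest signal well above background at day +60, no fold is given for that call. COL4A3 did not pass over all days without animal 3 (adjusted p 0.111) or with normexp correction (0.282).

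COL4A1 and COL4A2, the chains of the common type IV network, are neighbours on chromosome 12. COL4A2 (chr12:89165319-89165378) passed over all days (adjusted p 0.0171) but in no comparison of 2 days. Its values were 1.5, 0.33, 1.74 and 0.91 at day -30, 1.2, 1.56, 1.81 and 1.74 at day +1, and 0.26, 0.73, -0.36 and 0.49 at day +60. The mean was highest at day +1 (1.58 ± 0.271) and lowest at day +60 (0.28 ± 0.47, SD, n = 4 each). COL4A1 (chr12:88876125-88876184) read 2.77, 1.89, 2.59 and 2.37 at day -30 and 2.44, 2.93, 2.08 and 2.51 at day +60, a difference of 0.09 with an SE of 0.283. COL4A6, which lies beside COL4A5 on chromosome X, differed by -1.68 at day +60 (SE 0.722, adjusted p 0.0765) and was not called.

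With array brightness as a covariate, COL4A5 and COL4A3 also passed over all days and COL4A2 did not (adjusted p 0.171, and 0.0799 to 0.138 without animal 1, 2 or 3). COL4A5 was then called in no comparison of 2 days, and COL4A3 was called lower at day +60 (adjusted p 0.00585), again only as a bound. Endothelial markers moved the other way, with 6 of 9 called higher at day +180 (6.67% of all genes were) and 5 of 9 at day +240 (6.86%). So did some myoepithelial and smooth muscle markers, with 4 of 10 higher at day +60 (12.6% of all genes). Their part in the type IV values was not tested.

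COL27A1, a fibril-forming collagen best known from cartilage (chr8:105202019-105202078), was the only fibrillar gene of 9 whose brightest probe changed over the days. In a fit with each probe as a row of its own, dimmer probes of other fibrillar genes passed too. They were probes of COL5A3 (adjusted p 0.00172 and 0.00462), COL11A1 (0.00142 and 0.004) and COL11A2 (0.0066). COL27A1 read -0.35, -0.87, -0.77 and -0.85 at day -30, and -2.70, -3.53, -2.40 and -3.37 at day +15. Its values at day +60 were -2.88, -3.24, -4.04 and -3.43. Neither day overlapped with day -30. The falls were 2.29 at day +15 (SE 0.648, adjusted p 0.0179), 2.69 at day +60 (adjusted p 0.00331) and 2.03 at day +240 (adjusted p 0.0357). The mean was already at -2.57 ± 0.726 on day +1, a difference of -1.86 from day -30 that missed the threshold (adjusted p 0.082), and without the 2 arrays that stand apart it passed. At day +240 animal 1 read -0.59, level with day -30, and the other 3 read -3.28 to -3.58. The same array had a milk secretion mean of 3.18, within the 2.37 to 3.80 of day -30, against 6.72 to 7.86 in the other animals. The part of this array alone was not tested. Without the 4 arrays low in milk genes the fall at day +240 was 2.73 (adjusted p 0.000755). COL27A1 did not pass over all days with brightness as a covariate (adjusted p 0.108) or without animal 3 (0.106), and its difference at day +15 with that covariate was -0.58 (adjusted p 0.625). Its 3 probes gave -2.31, -2.69 and -3.13 at day +60.

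Among the 6 fibril-associated genes, COL16A1, which is found near fibrils and fibrillin, fell at day +15 by 1.81 (SE 0.610, adjusted p 0.0381) and at day +60 by 1.70 (adjusted p 0.0358). It read 1.90, 1.40, 2.03 and 1.23 at day -30, 0.35, -0.61, 0.50 and -0.95 at day +15, and 0.52, 0.37, -0.74 and -0.41 at day +60, without overlap (chr2:122611840-122611899). At day +120 animals 1, 3 and 4 were back at 1.91 to 2.42, animal 2 read -0.86, and over all 9 days the gene did not pass (adjusted p 0.0763). With brightness as a covariate its difference at day +15 was 0.09 (adjusted p 0.935).

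COL22A1, known from tissue junctions such as that of muscle and tendon (chr14:5353806-5353865), fell at day +60 alone among the comparisons with day -30, by 1.18 (SE 0.253, adjusted p 0.00133). It read -4.60, -4.31, -4.23 and -4.44 at day -30 and -5.70, -5.19, -5.47 and -5.93 at day +60, where 1 of 4 arrays was well above background. Its other probe differed by -0.34. COL21A1 (chr23:4051994-4052053) read -5.13, -4.69, -5.68 and -5.03 at day -30 and -7.40, -7.14, -6.42 and -6.92 at day +180, where none of the arrays was well above background. The fall is at least 1.31-fold by the same bound, with a fitted difference of -1.84 (SE 0.348, adjusted p 0.000657). COL21A1 is the member most open to the treatment of dim signal. Its fitted difference at day +60, -0.82 and not called here, became a called 1.30 with normexp background correction. COL21A1 did not pass over all days without animal 1 or 2 (adjusted p 0.0881 and 0.0704), nor COL22A1 without animal 1 or 4 (0.125 and 0.173). COL9A3, COL12A1 and COL20A1 were not called. COL20A1 came nearest (adjusted p 0.051 over all days), and with array brightness as a covariate it passed (1.01e-07), as did COL7A1 of the anchoring fibrils (0.000281) and COL11A2 (0.00497).

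COL13A1, a transmembrane collagen of cell adhesion sites (chr28:26406047-26406106), had the largest called fall. It read -0.94, -1.77, -1.91 and -1.92 at day -30 and -2.78, -6.78, -5.90 and -4.17 at day +60, 3.27 lower (SE 0.932, adjusted p 0.0105). At day +240 it read -2.15, -5.91, -7.44 and -2.27, 2.80 lower (adjusted p 0.0427). On both days all 4 animals were below the range of day -30, and 2 of 4 arrays were well above background. Animal 4 read -0.18 at day +120 and -1.04 at day +180 on the arrays that stand apart. Its adjusted p over all days, 0.0483, lay above the threshold without any 1 animal (0.0549 to 0.309) and was 0.562 with brightness as a covariate.

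COL25A1, a transmembrane collagen known from neurons and muscle (the probe shown above), read -3.54, -3.81, -3.57 and -5.17 at day -30 and -7.92, -7.29, -6.87 and -4.52 at day +60. The fall of 2.62 (SE 0.880, adjusted p 0.0262) was seen in 3 of 4 animals, and so was that of 2.73 at day +240 (adjusted p 0.0373). Animal 4 was low at day -30 and did not fall. Of the 4 arrays, 1 was well above background at day +60 and 1 at day +240. COL25A1 did not pass over all days without animal 1, 2 or 3 (adjusted p 0.0695 to 0.252) or with brightness as a covariate (0.168). COL17A1, which anchors basal epithelial cells in hemidesmosomes, was not called. Its means were 0.79 ± 0.383 at day -30, 1.26 ± 0.491 at day +1 and 0.05 ± 0.349 at day +15.

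The interstitial collagens that make up most fibrils were not called at any day by their brightest probes. COL1A1 (chr19:37104926-37104985), a chain of type I, read 4.41, 4.19, 4.45 and 3.61 at day -30 and 4.77, 4.34, 3.70 and 4.27 at day +60. The difference was 0.11 with an SE of 0.514, and the 2 days overlap. COL1A2 (chr4:11660708-11660766), the other chain of type I, differed by 0.02 (SE 0.465) and COL3A1 (chr2:7318098-7318157), the collagen of reticular fibres, by -0.17 (SE 0.536). The lowest of the 9 means was at day +240 in all 3 genes, at 3.68 ± 1.06, 3.57 ± 1.13 and 3.18 ± 1.35, where animals differed widely. At that day the brightest probe of COL3A1 differed by -0.92 from day -30 and its 9 other probes by -0.98 to -2.12. With each probe fitted as a row of its own, the COL3A1 probe nearest the 3′ end was called lower there, by 2.12 (adjusted p 0.0322). That probe is placed on 27 bases of the assembly only, fewer than its 60. No other COL3A1 probe was called at that day, and the one with the next smallest adjusted p (0.0808) differed by -1.58. COL5A2, which helps to set the width of type I fibrils and lies beside COL3A1 on chromosome 2, read 1.72 ± 0.221 at day -30 and -0.01 ± 1.27 at day +240 and missed the threshold over all days (adjusted p 0.0688). Without the 2 arrays that stand apart it passed, at an adjusted p of 0.0303.

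Type VI, the beaded filament, was not called either. COL6A1 (chr1:147423580-147423639) read 3.37, 2.88, 3.15 and 2.71 at day -30 and 3.35, 3.42, 2.22 and 2.83 at day +60, a difference of -0.07 (SE 0.353). COL6A2 (chr1:147570288-147570347) read 2.07, 0.99, 2.27 and 1.22 at day -30 and 1.47, 1.46, -0.21 and 0.81 at day +60, a difference of -0.76 (SE 0.616). The 2 days overlap in both genes. COL18A1, which lies on the same chromosome and carries the endostatin fragment, and COL15A1, its relative, stayed within 0.60 and 0.76 units between their highest and lowest day means.

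COL8A1, a short-chain collagen of vessel walls, was the member with the largest rise in its mean, and it was not called. It read -2.4, -4.14, -2.6 and -3.3 at day -30 and 1.3, -3.2, 1.8 and 0.63 at day +120, so that 3 animals were above day -30 and animal 2 lay within it. The difference was 3.24 with an SE of 1.13 (adjusted p 0.104). The probes of COL8A1 disagreed. At day +180 the brightest differed by 2.52 from day -30 and the 4 others by -0.82 to 2.09. With each probe fitted as a row of its own, the probe at -0.82 was called lower (adjusted p 0.0476). That probe was well above background on all 36 arrays. With array brightness as a covariate COL8A1 was called higher at day +1, +60, +120 and +180, by 3.03 to 4.71 against day -30. COL12A1, which coats type I fibrils, was called higher at day +1, +120 and +180, by 2.01 to 2.10, under that setting alone.

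Probes of a gene did not always tell the same story, and 21 of the 31 genes have more than 1. For each, the mean of the other probes was set against the brightest probe on each array, and the difference compared between a later day and day -30 within each animal by an exact permutation test, two-sided, of the signs of the 4 differences. With 16 arrangements the smallest possible p is 0.125, so no gene can pass 0.05 in this test. At day +60 the other probes had the lower mean difference in 14 of 21 genes and the higher in 7. All 4 animals moved the same way in 10 genes (p 0.125 each, 0.263 adjusted over the 21 tests), with the other probes lower in 8 and higher in COL8A2 and COL11A1. At day +15 the split was 12 lower and 9 higher, with all 4 animals alike in 6 genes each way. At day +180 it was 14 and 7, with 5 genes alike, all lower, and at day +240 it was 12 and 9, with 6 alike lower and 1 higher. The median over the 21 genes at day +60 was -0.53 for the brightest probes and -0.78 for the others, and at day +240 it was -0.63 and -0.60. The brightest probe was chosen by its mean over these same arrays, most of them from days after calving. Among probes of similar brightness, that choice favours the one that fell least. Its part in the splits was not tested, and no such split over all genes with several probes is given.

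In COL1A1 the brightest probe, which is also the one nearest the 3′ end, differed by 0.11 at day +60 and the 4 others by -0.44 to -1.67. In COL1A2 it was 0.02 against -0.17 to -1.40 in 5 others, in COL4A1 0.09 against -0.35 to -1.13 in 3, and in COL6A1 -0.07 against -1.06 and -1.39. The probes printed above were among these, at -1.37 in COL1A1, -1.40 in COL1A2 and -0.64 in COL4A1. In COL6A2 the printed probe differed by -0.89 and the brightest by -0.76, and the mean of the 3 others lay 0.05 above the brightest. COL3A1 followed with -0.17 against -0.11 to -0.95 in 9 others, and COL4A2 with -0.84 against -1.04 to -1.83. COL27A1 and COL16A1 had probes that moved together, with gaps of -0.03 and 0.02. In 13 of the 21 genes the brightest probe is also the one nearest the 3′ end, and labelling began at an oligo(dT) primer. The part of probe position was not tested.

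**Figure D3:**
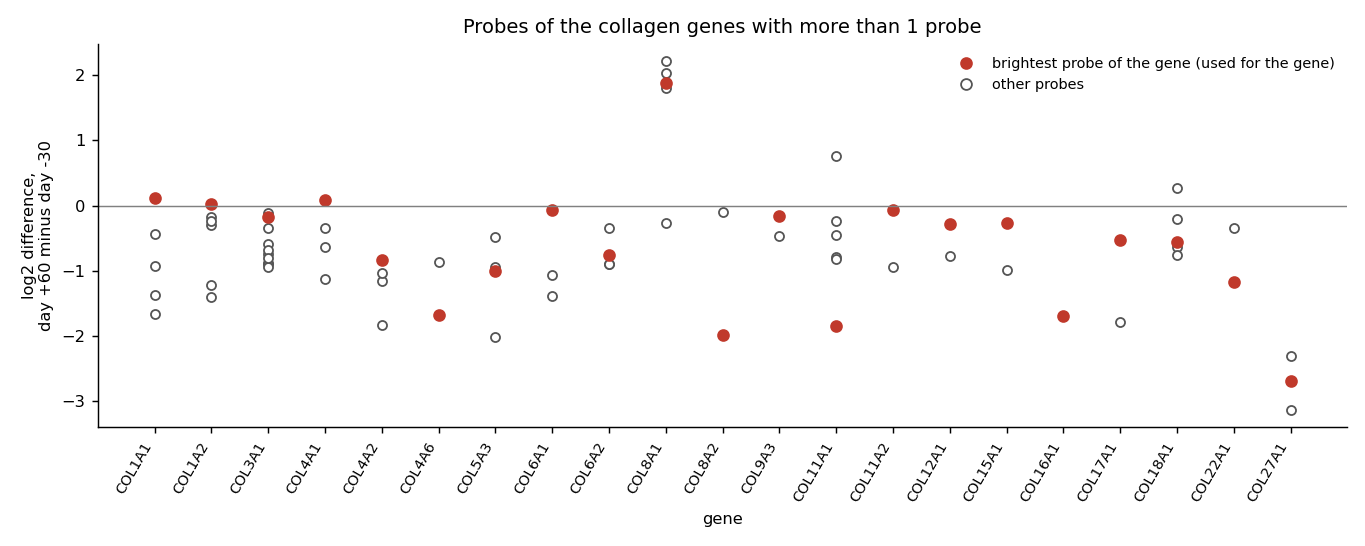
Log2 difference between day +60 and day -30 (vertical axis) of each probe of the 21 collagen genes with more than 1 probe, the brightest probe filled. In COL1A1, COL1A2, COL4A1 and COL6A1 the filled point lies near 0 and the open points lie below it.

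Fitted as a row of its own in a test of all 34997 probes, 22 of the 87 collagen probes (25.3%), of 14 genes, passed over all days, against 39.9% of all probes. In COL4A1, COL5A3, COL8A1, COL11A1, COL11A2, COL16A1 and COL17A1 only probes other than the brightest passed. At day +60 it was 17 collagen probes of 11 genes (19.5%, against 27.6%). At day +240 it was 11 probes of 8 genes (12.6%, the same share as over all probes), and at day +15 8 probes of 5 genes (9.2%, against 16.1%). Among those of day +15 a COL11A1 probe was called higher, by 1.52 (adjusted p 0.0156), where the brightest COL11A1 probe differed by -1.41. Taking the mean of all probes of a gene in place of the brightest raised the count over all days from 8 to 13 genes and the count at day +60 from 7 to 11. The share of all genes called with that mean is not given. COL4A2, COL4A6, COL5A3 and COL17A1 were the genes gained at day +60.

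The animals parted most after day +60, though their spread was wider from day +15 on than before calving. The SD between the 4 animals had a median over the 31 collagen genes of 0.385 at day -30 and 0.268 at day -15. It was 0.437 at day +1, 0.595 at day +15, 0.593 at day +30 and 0.525 at day +60. It then was 1.34 at day +120, 0.933 at day +180 and 1.13 at day +240. Over all genes it was, in the same order, 0.302, 0.225, 0.309, 0.324, 0.425, 0.337, 0.504, 0.58 and 0.511. The arrays low in milk genes are included, and no SD without them is given. The mean SD of the last 3 days was larger than that of the 2 days before calving in 31 of 31 collagen genes, and in 91.7% of all genes.

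**Figure D4:**
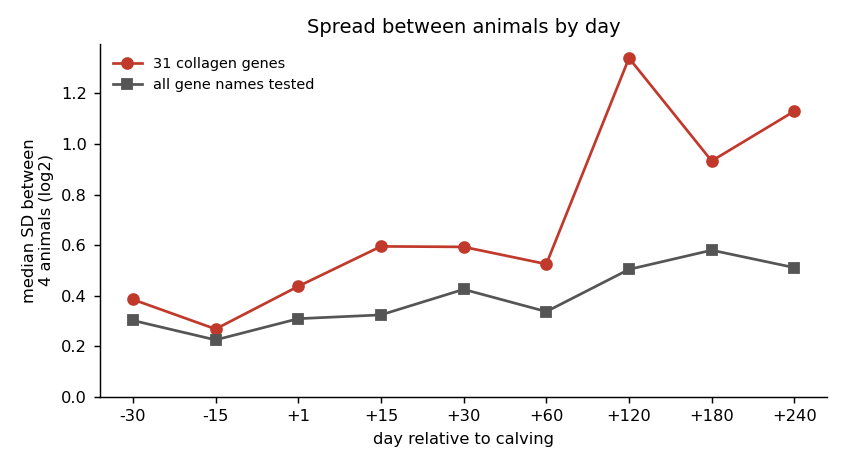
Median standard deviation between the 4 animals at each day (vertical axis, log2 units) for the 31 collagen genes and for all 20110 names. The 2 lines lie at 0.385 and 0.302 at day -30 and at 1.34 and 0.504 at day +120.

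COL1A1 shows the parting. At day +120 it read 5.51, 2.43, 5.52 and 4.93, at day +180 3.77, 4.47, 2.92 and 5.09, and at day +240 4.14, 3.24, 2.46 and 4.88. Animal 2 was thus far below the others at day +120, and animals 2 and 3 were the lowest at day +240. COL1A2 and COL3A1 had the same order of low animals, at 2.68 and 2.34 for animal 2 at day +120 and at 2.39 and 1.62 for animal 3 at day +240. Over all 36 arrays, COL1A1 and COL1A2 had SDs of 0.717 and 0.651, but the difference between the 2 on the same array had an SD of only 0.175. The type I pair deviated from its day means in the same direction on 34 of 36 arrays, as measured on shared arrays. COL1A1 and COL3A1 also did so on 34, and COL1A1 with COL4A1 or COL4A5 on 27 and 28. COL11A1 and COL11A2, chains of type XI, did so on 13, with the COL11A1 probe well above background on 26 of 36 arrays. Animal 2 was the lowest of the 4 at day +120 in 22 of 31 collagen genes (71.0%, against 33.8% of all genes), and animal 3 at day +180 in 17 (54.8%, against 19.3%). A count of 17 is not particular to the late days. Animal 4 was the lowest at day -30 in 18 (58.1%, against 29.5%), animal 1 at day +1 in 18 (58.1%, against 23.1%) and animal 3 at day +60 in 17 (54.8%, against 30.0%).

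Markers of fibroblasts, the cells that make most interstitial collagen, moved with these arrays. The list holds 11 measured genes, 11 of them well above background on all 36 arrays, and in limma 0 of the 11 passed over all days (1 at an unadjusted p under 0.05, 0 by the ordinary analysis of variance). Its mean lay between 1.38 and 1.63 at day -30. It was 0.29 in animal 2 at day +120 against 2.02 to 2.32 in the others, 0.38 in animal 3 at day +180 against 2.46 in animal 2, and -0.04 and 0.05 in animals 2 and 3 at day +240 against 1.34 and 2.02 in animals 4 and 1. The 8 milk secretion genes, 7 of them above background on every array, had means of 7.86 in animal 2 at day +120 and of 7.86 and 7.60 in animals 2 and 3 at day +240. In animal 1 at day +240, the highest in the fibroblast list on that day, the milk secretion mean was 3.18. In animal 4 at day +120 and day +180 the milk secretion means were -1.28 and -1.21, with COL1A1 at 4.93 and 5.09. At day +120 COL1A1 was higher in animals 1 and 3 (5.51 and 5.52), whose milk secretion means were 6.67 and 6.57. At day +240 it was highest in animal 4 (4.88), with a milk secretion mean of 6.72. Luminal epithelial markers had their lowest means of day +120 and day +180 in animal 4, at 2.04 and 1.95. The part of these cell types in the spread of the collagens was not tested.

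**Figure D5:**
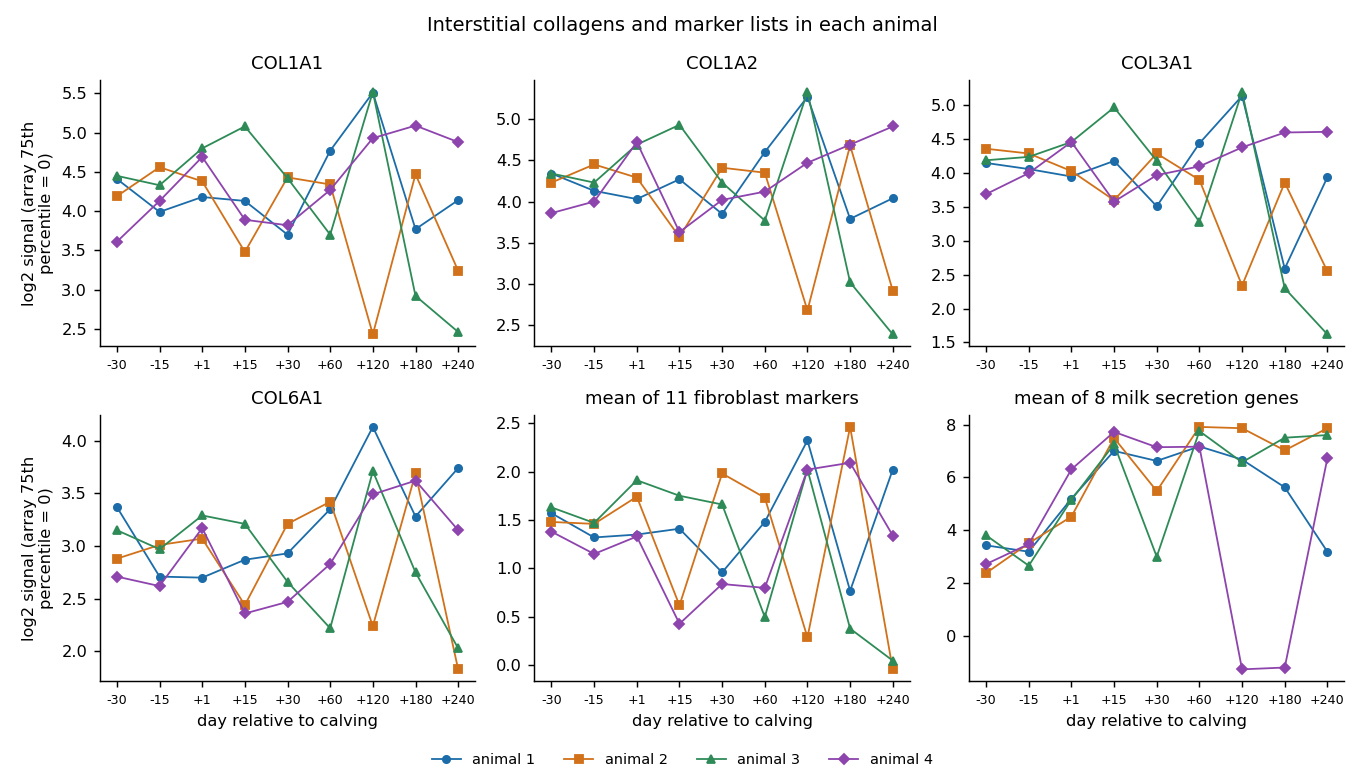
Log2 signal of COL1A1, COL1A2, COL3A1 and COL6A1 and the means of the fibroblast and milk secretion lists in each of the 4 animals (lines) by day relative to calving. Animal 2 drops to 2.43 in COL1A1 and to 0.29 in the fibroblast list at day +120, and the milk secretion mean of animal 4 is below 0 at day +120 and day +180.

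Other markers bear on where a collagen could come from. Of 8 cartilage and bone markers, 4 are in the table, and 1 of those was well above background on every array. Their mean stayed between -5.29 and -2.82 over the 36 arrays. COL2A1, a collagen of cartilage, was well above background on all 36 arrays. Adipocyte markers ranged from -1.17 to -0.36 at day -30 and from -1.34 to 1.94 at day +60, and leukocyte markers from -0.98 to -0.92 and from -1.76 to -0.70. Skeletal muscle markers ranged from -1.99 to -1.27 at day -30 and from -3.05 to -1.68 at day +60. The part of these cells was not tested.

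Among the enzymes that modify and fold collagen chains, 6 of 15 measured genes passed over all days (42.3% of all genes did), and they did not move one way. P4HA2, a prolyl hydroxylase, rose at day +60 by 1.33 (SE 0.226, adjusted p 0.000133), as did P4HB, its partner subunit and a general disulfide isomerase, by 1.38 (adjusted p 0.00928). PPIB, a prolyl isomerase of the endoplasmic reticulum, rose by 0.68 (adjusted p 0.0207). LEPRE1 and CRTAP, which form the prolyl 3-hydroxylase complex with PPIB, fell by 1.22 (adjusted p 0.00986) and 0.74 (adjusted p 0.0262). The median of the 15 genes at day +60 was -0.46, with 3 called higher and 3 lower, where 12.6% and 16.7% of all genes were. LEPRE1 was named after its values were seen.

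Of 15 genes of secretion, processing and crosslinking, 3 passed over all days, a smaller share than the 42.3% of all genes. LOXL4, a lysyl oxidase that crosslinks collagen, rose by 2.39 at day +60 (adjusted p 0.0256) and by 3.05 at day +180 (adjusted p 0.00881). ADAMTS14, which trims procollagen, fell by 1.11 at day +180 (adjusted p 0.00412) and by 0.92 at day +240 (adjusted p 0.0212). ADAMTS3 passed over all days only, with differences of -0.06 at day +60 and 0.67 at day +240. Of the 13 small leucine-rich proteoglycans and fibril-associated proteins, 0 passed over all days in limma, 0 at an unadjusted p under 0.05 and 0 by the ordinary analysis of variance. BGN, a proteoglycan that binds type I collagen, was called higher at day +180, by 1.24 (adjusted p 0.0439), the 1 call of that list at that day, and was named after its values were seen.

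Of 14 laminins and other basement membrane proteins, 4 passed over all days, again against 42.3% of all genes. AGRN, a heparan sulfate proteoglycan, fell by 0.91 at day +15 (adjusted p 0.0171) and NID2, a linker of laminin and type IV collagen, by 1.58 at day +240 (adjusted p 0.035). LAMA3 and LAMA5, laminin chains, passed over all days with differences of -0.37 and -0.42 at day +60. Of 11 collagen receptors 4 passed, against the same share. ITGA10, an integrin chain that binds collagen, fell by 1.24 at day +60 (adjusted p 0.0157) and LAIR1, an inhibitory receptor of leukocytes, by 0.72 (adjusted p 0.00798). CD36, which also takes up fatty acids and is abundant in the milk fat membrane, rose by 2.69 (adjusted p 0.0039), and ITGA2 differed by -0.46.

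Of 20 matrix metalloproteinases and inhibitors, 7 passed over all days (42.3% of all genes did), with 2 higher and none lower at day +60, where 12.6% and 16.7% of all genes were. TIMP2, an inhibitor of matrix metalloproteinases, rose by 1.13 at day +60 (SE 0.251, adjusted p 0.0017) and by 1.32 at day +180 (adjusted p 0.00066). MMP9, a gelatinase, rose by 1.11 at day +180 (adjusted p 0.0277). MMP15 and MMP12 passed over all days with differences of -0.16 and 1.58 at day +60, and MMP12 was well above background on 20 of 36 arrays. Of 16 genes of the TGF-beta pathway, a known inducer of collagen genes, 3 passed, against the same 42.3%. CTGF, a matrix target, rose by 1.44 at day +60 (adjusted p 0.0283), LTBP2, a latent TGF-beta binding protein, by 1.03 at day +180 (adjusted p 0.0428), and TGFBR3 differed by 0.50 at day +60 (adjusted p 0.0759).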

How the data were processed

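Mammary biopsies of 4 yaks at 9 days were measured on 36 single-colour arrays. Per the submitters' design text, the authors used GeneSpring 12 and JMP Genomics 7. The deposited table holds log2 signals less a constant per array, within 0.0041 of the array's log2 75th percentile; how that constant was set is not given in the sources used here. Per the file headers, Feature Extraction 10.7.3.1 made the deposited scanner files, whose signals are in intensity units. Each column was matched to the scanner file that it equals (SD of the difference 0), and the file's marks, deposited as 0 or 1 and of another unit, gave the spots well above background. No spot was saturated. The number of arrays limits the precision.

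The probe of each gene name with the highest mean entered limma 3.58.1 (R 4.3.3) with day as factor and animal as random block (correlation 0.0531), as in the design text. Animal numbers pair the samples by design. Deviations of the same animal correlated at 0.156 on average, others at -0.0523. P-values were adjusted by Benjamini-Hochberg over 20110 rows, at 0.05. On data simulated for day +60 against day -30 over 20110 genes, 36 of 100 changes of 1 log2 unit and 75 of 100 of 2 units were recovered, with 4 unchanged genes called. The noise was drawn independently for each gene, with no animal or array effect, and no other genes were changed. In the real comparison 29.3% of all genes were called, so the recovered shares may not hold for it. The members, lists and tests were chosen with earlier results of these data known. Genes given in full are the 8 that passed over all days and 7 main interstitial and type IV chains. In each comparison the called genes with the largest changes were named, and of each list up to 4 of those that passed over all days, by smallest adjusted p, with LEPRE1 and BGN added. Permutation tests of probes were added after seeing the data. Alternatives tried are in the closing section.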

Additional observations from a re-analysis of the deposited data

Results flagged for a closer look

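In 14 collagen genes at 9 days, 126 groups of 4 animals were searched for an animal far from the other 3, and 5 were found. Chance gives about 1 in 20 groups, so 5 of 126 is no more than chance gives. COL4A5 read -2.55 in animal 1 at day +60 against -3.49 to -3.41 in the others. COL27A1 read -0.59 in animal 1 at day +240 against -3.58 to -3.28. COL13A1 read -0.94 in animal 1 at day -30 against -1.92 to -1.77. COL25A1 read -5.17 in animal 4 at day -30 against -3.81 to -3.54. COL4A1 read 3.52 in animal 4 at day +240 against 1.74 to 2.04.

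The probe of COL10A1, a collagen of hypertrophic cartilage, is not in the deposited table but was well above background on 16 of 36 arrays, 4 of them at day -30, 4 at day -15 and 3 at day +1. Of the 4 probes of COL6A6, a further type VI chain that is also outside the table, the best was well above background on 12 arrays.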

How the results depend on the processing

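Counts of called collagen genes moved with several choices. The share of all genes called under each choice is not given, here or above. Whether a move is one of the collagen genes or of the whole table therefore cannot be read from these counts. Over all days the 8 calls became 13 with the mean of all probes, 3 with normexp correction and 4 with the days under which the scanner files are deposited. At day +15 the 2 became 4, 1 and 0 under the same 3 settings, and 2 with brightness, 0 of them shared, and at day +60 the 7 became 11, 2 (1 of them higher) and 2. At day +180 the 3 became 1 with quantile normalization, 1 with normexp, 6 with brightness (2 higher) and 7 without the 2 arrays that stand apart. At day +240 the 5 became 2, 1 and 3 with quantile, normexp and brightness, and 0 with the scanner files' days. The 1 call of day +60 against +30 became 4 with brightness and 0 with no replicate block, quantile, normexp, the scanner files' days and the analysis of variance.

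Comparisons without a call gained some. At day +1 against -30 there were 1 with the block as fixed effect, 1 with the mean of probes, 1 with quantile, 5 with brightness (2 higher) and 2 without the 2 arrays. At day +30 against -30 there were 1, 1, 2, 5 and 1 with the mean of probes, quantile, brightness, the scanner files' days and without the 2 arrays. At day +120 against -30 there were 3 with brightness (2 higher), 2 with the scanner files' days and 2 without the 2 arrays. Brightness gave 4 at day +1 against -15, 2 at +120 against +60 and 2 at +180 against +120. The fixed block and the analysis of variance each gave 1 at day +15 against +1, and the scanner files' days gave 4, all higher, at +240 against +180. Without the 4 arrays low in milk genes there were, all lower, 2 at day +1, 2 at +30, 3 at +120, 7 at +180 and 9 at +240 against -30, 1 at +1 against -15, 1 at +15 against +1 and 0 at +60 against +30. That setting was chosen after seeing the data, as was leaving out 2 arrays. The causes were not tested. The dim-probe filter changed no count, and the replicate block, left out or fixed, changed no other count by over 1.5 times.

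Without 1 animal in turn, the counts ranged from 2 to 10 over all days, 0 to 1 at day +15, 4 to 8 at day +60, 0 to 2 at day +120, 1 to 4 at day +180, 0 to 7 at day +240 and 0 to 1 for day +60 against +30. Over all days the count was 7 with no replicate block. Dim probes such as COL4A3 and COL21A1 give bounds only, and slide and day cannot be told apart.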
